A study of Homo sapiens with 6 samples.

Results

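The insulin-like growth factor (IGF) and insulin system was followed through 10 of its genes in SH-SY5Y, a human cell line from a neuroblastoma, a tumour of the sympathetic nervous lineage. The genes were chosen by symbol as receptors (IGF1R, INSR and IGF2R), a ligand (IGF2), binding proteins (IGFBP2, IGFBP4 and IGFBP5) and receptor substrates (IRS1, IRS2 and IRS4), and all 10 had a row among the 19610 genes of the count table. Of the 6 RNA-seq libraries, 3 came from wild-type cells given SGC707, a compound that inhibits PRMT3 (a protein arginine methyltransferase), and 3 from wild-type cells given DMSO. Each group has replicates A, B and C, and values per library are given in that order. The sources used here give neither dose nor duration nor the culture each replicate came from. The p-values therefore measure the spread between these 6 libraries alone, and that spread may be technical. The study asked about the microRNA gene MIR448, IGF1R and tau phosphorylation.

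IGF1R and INSR encode related receptor tyrosine kinases that bind IGFs and insulin, phosphorylate the IRS docking proteins and so switch on PI3K and AKT, and AKT in turn restrains GSK3, a kinase of tau. IGF2R has no kinase: it takes up and degrades IGF2 and carries lysosomal enzymes tagged with mannose 6-phosphate. IGFBPs hold IGFs outside the cell and can block or prolong their action, and IGF1R signalling is known to support the growth and survival of neuroblastoma cells.

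MicroRNAs pair with messenger RNAs mainly through the seed, bases 2 to 8 from their 5′ end, so the mature MIR448 product and its seed matches in the 10 genes are shown because the study asked about this pair. Capitals mark the seed in the microRNA and the bases complementary to it in the 3′ UTR windows, with the A opposite base 1 of the microRNA in capitals too where it is present.
hsa-miR-448, RefSeq, GRCh38.p14 chrX:114823524-114823545, plus strand: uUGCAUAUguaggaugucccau
IGF1R, GENCODE 29, GRCh38 chr15:98957619-98957645, plus strand: ccttttttcaATATGCAAgcagctttt
IGF2R, GENCODE 29, GRCh38 chr6:160107280-160107306, plus strand: aaggaggggcATATGCAgggacctgcc
IRS2, GENCODE 29, GRCh38 chr13:109754246-109754272, minus strand: acaaaaaggcATATGCAAtatttacat
IRS2, GENCODE 29, GRCh38 chr13:109753858-109753884, minus strand: cttaatagccATATGCAAtaaaataaa
The 7-base match ATATGCA, searched on the transcript strand of the longest protein-coding transcript, was found in 3 of the 10 genes. IGF1R held 1, starting at base 187 of its 7088-base 3′ UTR, IGF2R held 1 at base 2206, and IRS2 held 2 at bases 2042 and 2430. Such a match was found in 12.5% of all 18724 annotated 3′ UTRs, and in 53.6% of the 304 within 10% of the length of that of IGF1R. For the length of the IRS2 3′ UTR, 3606 bases, the share was 25.2%, and for that of IGF2R, 6420 bases, it was 46.2%. These are matches of letters, not measured binding. MIR448 itself was not analysed here, and a single library, SGC707 B, held 1 count of its host gene HTR2C.

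Depth and composition differed between the libraries before any gene was compared. Total counts were 11658728 to 12127187 with SGC707 and 11863696 to 15437602 with DMSO, and counts on nuclear genes were 7559322 to 8999358 with SGC707 and 6066305 to 6327895 with DMSO. Mitochondrially encoded transcripts took 24.3% to 37.7% of the counts with SGC707 and 46.7% to 60.7% with DMSO. Levels are therefore given as normalised CPM (counts scaled to a fixed library size), in which TMM, a scaling that sets the bulk of genes equal between libraries, takes up this difference. SGC707 C stood apart in GC content. When each gene's deviation from its mean was set against the GC content of its transcript, the Spearman correlation across genes was -0.76 in SGC707 C, 0.53 in SGC707 A and 0.34 in SGC707 B, and -0.13 to 0.23 in the DMSO libraries. Of 12 adrenergic neuroblastoma markers 11 were expressed at a mean of at least 1 normalised CPM, and TH, which encodes the rate-limiting enzyme of catecholamine synthesis, had 0 counts in every library. The adrenergic markers summed to 2900.0 to 3413 normalised CPM with SGC707 and 3915 to 5296 with DMSO. Log2 fold changes were negative for 10 of 11 tested, against 5756 of all 12196 tested genes. In the edgeR test described next none of the 11 passed, and 3 had an unadjusted p under 0.05 (12.8% of all tested genes). The groups did not overlap in normalised CPM for 5 of the 11 (20.6% of all tested genes). The markers of the mesenchymal state, 6 of 10 of them expressed at that level, summed to 402 to 429.9 with SGC707 and 373 to 446 with DMSO. Log2 fold changes were negative for 4 of the 6 mesenchymal markers tested and positive for 2, and none of the 6 passed. Of these 6, 2 had a negative value with an unadjusted edgeR p under 0.05, and the groups did not overlap for 2. The shares of all tested genes are those given for the adrenergic markers. Schwann-like markers (SOX10 at 0) and epithelial markers, 1 of 5 expressed in each list, summed to at most 3.34 normalised CPM in any library. The part of cell state or of these library differences in the results was not tested, and in bulk RNA fewer cells of a type and less RNA per cell cannot be told apart.

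The test was edgeR's quasi-likelihood test of SGC707 against DMSO over 12196 genes, with Benjamini-Hochberg adjustment over all of them and a threshold of 0.05. It called 1 gene higher with SGC707 (0.00820%) and 2 lower (0.0164%), together 0.0246%, none of them in the IGF and insulin system. Of the 10 genes 8 had enough counts to be tested, and 0 of the 8 passed in edgeR, DESeq2 or limma-voom. None of the 8 was under an unadjusted edgeR p of 0.05, where 12.8% of all tested genes were. Scaled by library totals alone, INSR, IGF2R and IRS2 passed, in a fit that called 21.4% of all tested genes, 2574 higher and 31 lower. Log2 fold changes were positive for 6 of the 8 and negative for IGF1R and IGFBP5, where 6440 of all 12196 tested genes were positive. In DESeq2 5 of the 8 were positive. The groups did not overlap in normalised CPM for IGF2R, IGF1R and IGFBP5, 3 of 8, and the same held for 20.6% of all tested genes.

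Per transcript length the system was led by its binding proteins and by IRS2. Levels are given as TPM over nuclear genes, which divides counts by transcript length (the longest protein-coding one). IGFBP5 was highest, at 449 ± 22.6 TPM with SGC707 and 513 ± 19.96 with DMSO (SD, n = 3 each), at percentile 98.3 of 15004 detected genes. IGFBP2 followed at 243 ± 134 TPM with SGC707 and 155 ± 18.6 with DMSO, then IRS2 at 128 ± 3.50 with SGC707 and 125.5 ± 2.47 with DMSO. IGFBP4 stood at 93.4 ± 37.8 TPM with SGC707 and 81.5 ± 8.58 with DMSO.

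The receptors lay lower. IGF2R stood at 48.1 ± 2.77 TPM with SGC707 and 42.4 ± 4.05 with DMSO, IGF1R at 19.5 ± 1.19 with SGC707 and 20.8 ± 0.635 with DMSO, and INSR at 19.0 ± 4.59 with SGC707 and 15.9 ± 1.47 with DMSO (SD, n = 3 each). IRS1 was lowest of the tested genes, at 5.75 ± 0.789 TPM with SGC707 and 4.99 ± 0.729 with DMSO. Each gene stood above the next in this order in all 6 libraries, except that SGC707 C had IGFBP2 (91.8 TPM) below IRS2 (124) and IGF1R (20.6) below INSR (23.4). IGFBP2 and IRS2, and IGF1R and INSR, were therefore not separated beyond the spread between libraries. With the longest IGFBP2 transcript of any kind, of 4414 bases in place of 1439, the mean of IGFBP2 was 71.6 TPM and it came after IGFBP4.

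**Figure D1:**
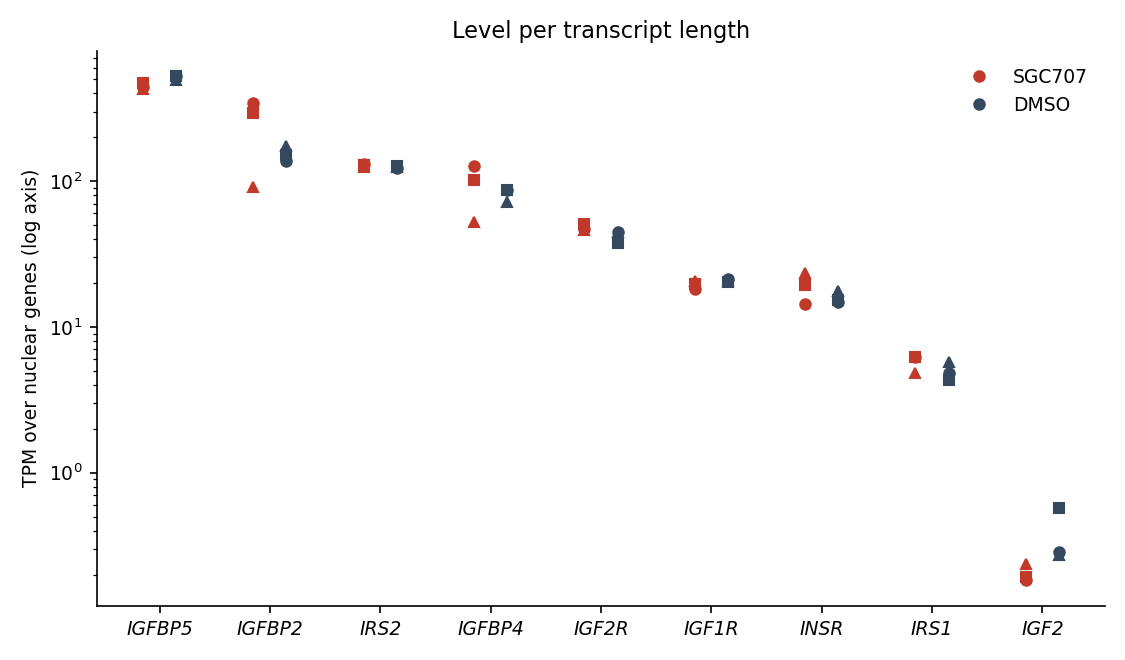
Level per transcript length, in TPM over nuclear genes on a log axis, of the 9 detected genes in each library (circles replicate A, squares B, triangles C, with SGC707 left of DMSO). IGFBP5 lay at 429 TPM or above in every library, and IGF2, at 0.182 to 0.573 TPM, rests on 3 to 6 counts per library.

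IGF1R (ENSG00000140443.14, GRCh38 chr15:98648539-98964530, plus strand), the receptor named in the study's question, had 39.8, 41.9 and 44.3 normalised CPM with SGC707, against 46.7, 45.3 and 44.7 with DMSO. All 3 SGC707 libraries lay below all 3 DMSO libraries, narrowly so for SGC707 C against DMSO C, as in 9.78% of all tested genes. The means were 42.0 ± 2.29 with SGC707 and 45.6 ± 1.03 with DMSO (SD, n = 3), a log2 fold change of -0.12 whose 95% interval runs from -0.44 to 0.20 (edgeR adjusted p = 0.756). On a linear scale the interval runs from 0.737-fold to 1.15-fold.

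The separation of the IGF1R libraries depended on the scaling. In TPM, SGC707 had 18.2, 19.6 and 20.6 and DMSO had 21.5, 20.2 and 20.7, and the groups overlapped. They overlapped too after a correction for GC content and length, which put SGC707 C, at 47.9 corrected CPM, above the other 5 libraries. The unscaled counts were higher with SGC707, at 658, 667 and 569 in A, B and C, against 490, 463 and 497 with DMSO. Scaled by library totals alone, which moved the median log2 fold change of all tested genes to 0.69 from 0.02, IGF1R had a log2 fold change of 0.55 with an edgeR adjusted p of 0.0870, the lowest among its alternatives, and lay below that median.

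INSR (ENSG00000171105.13, chr19:7112255-7294034, minus strand), the insulin receptor, had 22.7, 30.3 and 36.9 normalised CPM with SGC707, against 23.6, 25.1 and 27.7 with DMSO. The groups overlapped, since SGC707 A was the lowest library of all and SGC707 C the highest. The log2 fold change was 0.23 (95% interval -0.26 to 0.72, edgeR adjusted p = 0.676), with 0.40 without SGC707 A and 0.05 without SGC707 C.

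The balance of both receptor tyrosine kinases was also compared within each library, where no scaling between libraries enters. IGF1R had 1.75, 1.38 and 1.20 counts per INSR count with SGC707, against 1.98, 1.80 and 1.61 with DMSO. SGC707 A lay among the DMSO libraries and SGC707 B and C below them. The log2 ratio differed by -0.33 between SGC707 and DMSO (two-sided exact permutation p = 0.2, 0.3 after Benjamini-Hochberg adjustment over 3 ratios), where 3 against 3 libraries cannot go below 0.1. The difference was -0.20 without SGC707 C.

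IGF2R (ENSG00000197081.13, chr6:159969099-160113507, plus strand), the IGF2 and mannose 6-phosphate receptor, had 118, 126 and 113 normalised CPM with SGC707, against 112, 97.2 and 111 with DMSO. All SGC707 libraries lay above all DMSO libraries, by little in SGC707 C against DMSO A, as in 10.8% of all tested genes. The log2 fold change was 0.16 (95% interval -0.15 to 0.47, edgeR adjusted p = 0.657). The groups were also apart in this direction with RLE size factors, as for 10.2% of all tested genes, in TPM (13.3% when scaled by nuclear counts) and after a correction for GC content and length (15.1%). Library totals alone put 49.4% of all tested genes apart in this direction, IGF2R among them.

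**Figure D2:**
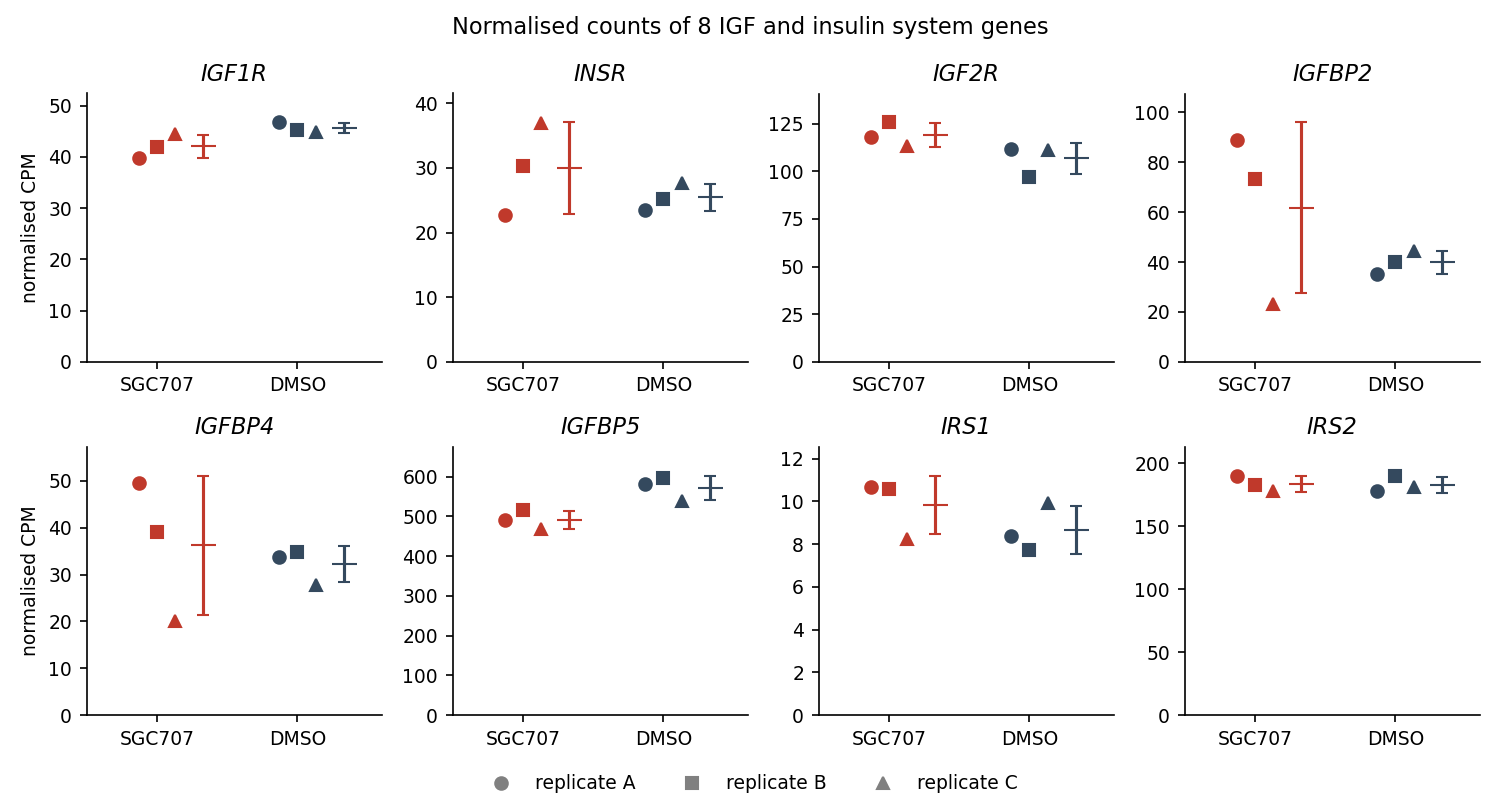
Normalised CPM of the 8 tested genes in each library (circles replicate A, squares B, triangles C, SGC707 left of DMSO), with the mean and SD (n = 3) to the right of each group and every axis from 0. IGFBP2 and IGFBP4 have SGC707 A and B above the DMSO libraries and SGC707 C below them.

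The ligand genes were close to silent. IGF2 (ENSG00000167244.19, chr11:2129112-2149603, minus strand), an imprinted fetal growth factor gene, had 3 counts in each SGC707 library, against 3, 6 and 3 with DMSO. Summed over libraries these were 9 and 12 counts, an SGC707 to DMSO ratio of 0.527 in normalised CPM with a 95% exact interval of 0.196 to 1.36 that covers counting error only, and a difference was not detectable at this depth. The log2 ratio of IGF2 to IGF2R differed by -0.96 (two-sided exact permutation p = 0.1, the smallest possible, 0.3 after adjustment over 3 ratios) and rests on these few counts, with -0.57 without DMSO B. With IGF2 at 3 counts in every library but DMSO B, the ratio mainly follows the raw IGF2R counts. Those were 1953, 1999 and 1453 with SGC707, against 1173, 994 and 1234 with DMSO, and are not scaled for depth. INS-IGF2, a read-through gene that shares exons with IGF2, had 0 counts throughout, and so did IGF1 and INS, the genes of the other ligands.

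IGFBP2 (ENSG00000115457.9, chr2:216632828-216664436, plus strand), a secreted IGF-binding protein, had the widest spread and the largest estimate of the 8. It stood at 88.7, 73.3 and 23.2 normalised CPM with SGC707, against 35.4, 39.9 and 44.4 with DMSO. SGC707 A and B were the highest of the 6 libraries and SGC707 C was the lowest. The log2 fold change was 0.63 (95% interval -0.35 to 1.61, edgeR adjusted p = 0.569).

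Without SGC707 C the value for IGFBP2 was 1.02 (95% interval 0.69 to 1.35) and it passed (edgeR adjusted p = 0.0272), as the only one of the 8 genes to do so. That fit called 9.26% of all tested genes, 462 higher and 685 lower, and over every alternative tried the adjusted p of IGFBP2 ran from 0.00994 to 0.915. Without SGC707 A the value was 0.28. A correction for GC content and length gave IGFBP2 58.2, 60.6 and 50.2 corrected CPM with SGC707, against 31.2, 35.5 and 45.8 with DMSO. After it the groups no longer overlapped, as for 15.1% of genes on the higher side, and the log2 fold change was 0.59 (95% interval 0.22 to 0.96, edgeR adjusted p = 0.0897).

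IGFBP4 (ENSG00000141753.6, chr17:40443461-40457731, plus strand), a binding protein that mainly inhibits IGF action and is cleaved by PAPP-A, had the same order of libraries within SGC707. It stood at 49.5, 39.2 and 20.2 normalised CPM with SGC707, against 33.9, 34.9 and 27.8 with DMSO. SGC707 A and B lay above the DMSO libraries and SGC707 C below. The log2 fold change was 0.17 (95% interval -0.54 to 0.89, edgeR adjusted p = 0.854), with 0.46 without SGC707 C (95% interval 0.09 to 0.82, edgeR adjusted p = 0.0999) and -0.11 without SGC707 A. Over every alternative its adjusted p ran from 0.0844 to 0.958. After the GC and length correction IGFBP4 had 37.8, 34.3 and 34.2 corrected CPM with SGC707, against 30.8, 32.5 and 28.4 with DMSO, a log2 fold change of 0.21 with an edgeR adjusted p of 0.267.

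IGFBP2 and IGFBP4 have the most GC-rich transcripts of the 8 genes, at 67.7% and 62.5%, and SGC707 C stood furthest below the other SGC707 libraries for them. Relative to the mean of SGC707 A and B on the log2 scale, SGC707 C stood at -1.80 for IGFBP2 and -1.13 for IGFBP4. Over the 481 tested nuclear genes with at least 65% GC the median of this difference was -1.35, and over the 1407 genes with 60% to 65% it was -0.95. IRS2, at 58.7% GC, differed by -0.07 where the median of the 1831 genes with 55% to 60% was -0.55, and INSR, at 49.0%, by 0.49 where the median of the 2044 genes with 45% to 50% was 0.13. IGF1R, at 51.7%, differed by 0.12 where the median of the 1789 genes with 50% to 55% was -0.20 and their upper quartile 0.05. Across the 8 genes the difference and GC content had a Spearman correlation of -0.62 and a Pearson correlation of -0.89, a description in which all points share the same 3 libraries.

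**Figure D3:**
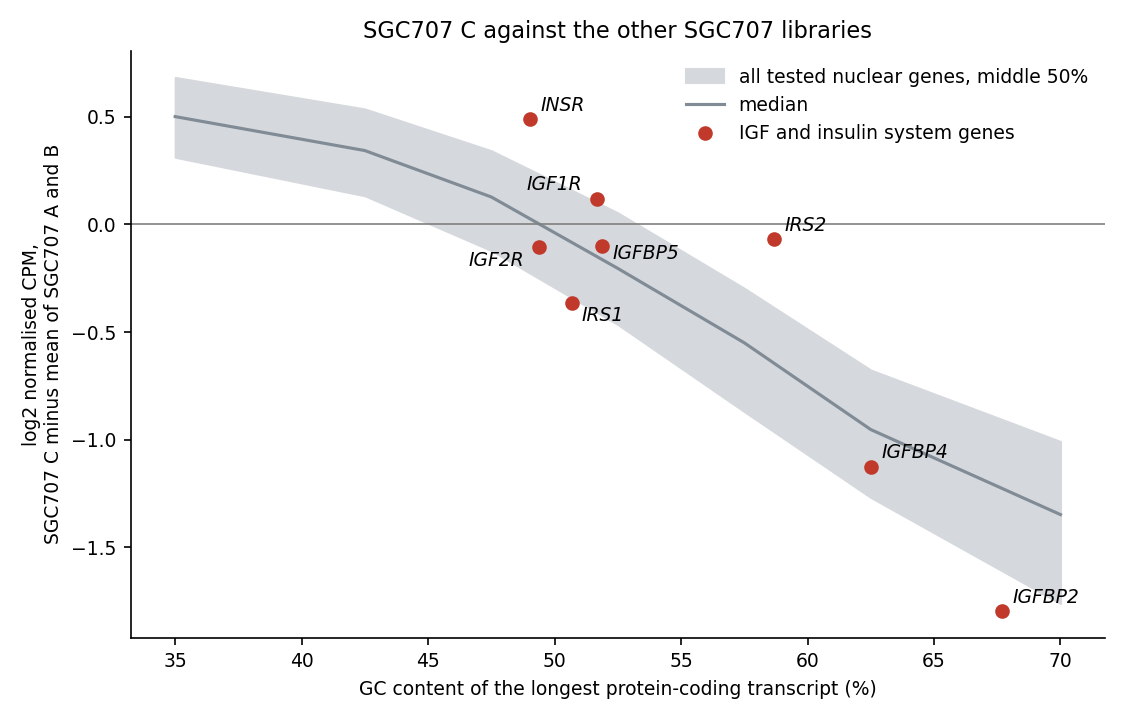
Difference in log2 normalised CPM between SGC707 C and the mean of SGC707 A and B, against transcript GC content in percent, for the 8 genes (points) and for all tested nuclear genes in GC bins (line, median; band, middle 50%). IGFBP4 (-1.13) lies within the middle 50% of its GC bin, IGFBP2 (-1.80) just below that of its bin (lower quartile -1.76), and IGF1R, INSR and IRS2 above those of theirs.

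IGFBP5 (ENSG00000115461.4, chr2:216672105-216695525, minus strand), a binding protein that also attaches to extracellular matrix, lies 7668 bases from IGFBP2 on the opposite strand. It had 492, 515 and 469 normalised CPM with SGC707, against 582, 596 and 538 with DMSO. All SGC707 libraries lay below all DMSO libraries, as in 9.78% of all tested genes. This also held in TPM (8.36% when scaled by nuclear counts) and after the GC and length correction (14.7% of genes were apart on the lower side there). The log2 fold change was -0.22 (95% interval -0.51 to 0.07, edgeR adjusted p = 0.506). It had the smallest unadjusted p of the 8 genes (0.121). With library totals alone its log2 fold change was 0.47 and the groups overlapped.

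Within each library IGFBP5 had 5.54, 7.02 and 20.2 counts per IGFBP2 count with SGC707, against 16.4, 14.9 and 12.1 with DMSO. SGC707 A and B lay below the DMSO libraries and SGC707 C above them. The log2 ratio differed by -0.64 (two-sided exact permutation p = 0.4, 0.4 after adjustment over 3 ratios). It was -1.21 without SGC707 C (exact permutation p = 0.1, the smallest possible), -0.27 without SGC707 A and -0.44 without SGC707 B. After the GC and length correction, with all libraries, it was -0.78 (exact permutation p = 0.1, the smallest possible).

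IRS1 (ENSG00000169047.5, chr2:226731317-226799759, minus strand) and IRS2 (ENSG00000185950.8, chr13:109752698-109786568, minus strand) encode the docking proteins that couple both kinases to PI3K. IRS1 had 10.7, 10.6 and 8.26 normalised CPM with SGC707, against 8.39, 7.72 and 9.90 with DMSO. The groups overlapped, with a log2 fold change of 0.18 whose 95% interval runs from -0.32 to 0.69 (edgeR adjusted p = 0.758).

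IRS2, which carries more copies of the MIR448 seed match than any other of the 10 genes, had 190.2, 183 and 178 normalised CPM with SGC707, against 178, 190.4 and 181 with DMSO. The groups overlapped almost completely. Its log2 fold change was 0.0036 (95% interval -0.28 to 0.29, edgeR adjusted p = 0.995), the closest to 0 of the 8. On a linear scale that interval runs from 0.824-fold to 1.22-fold. The GC and length correction set SGC707 C apart, with 166, 169.9 and 253 corrected CPM under SGC707, against 160.3, 175 and 182 under DMSO, and the log2 fold change was then 0.18 with an edgeR adjusted p of 0.546.

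IRS4 (ENSG00000133124.11, chrX:108732482-108736409, minus strand), a docking protein with a narrow tissue range, had 0 counts in all 6 libraries. The floor taken for a count of 0 is 3 counts per library, for counting error only, or 0.181 to 0.234 normalised CPM with SGC707 and 0.270 to 0.293 with DMSO.

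**Figure D4:**
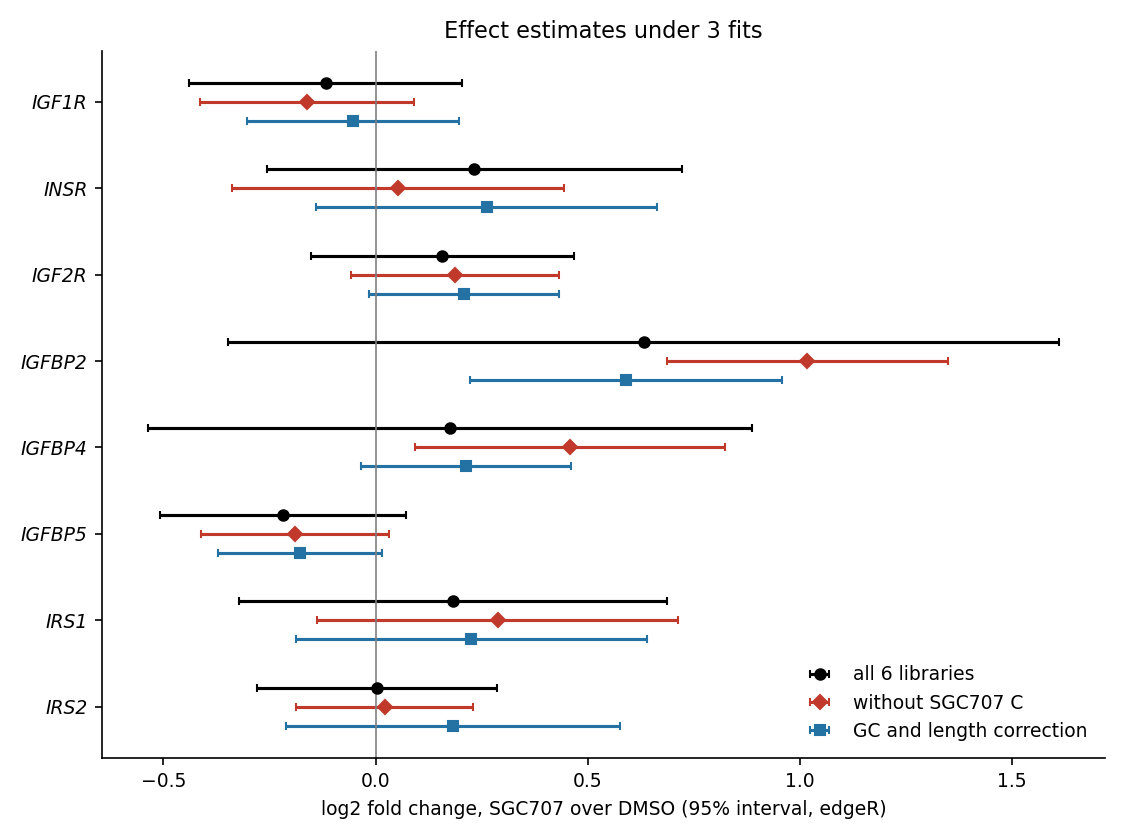
Log2 fold change of SGC707 over DMSO with its 95% interval for the 8 tested genes, in edgeR with all 6 libraries (black circles), without SGC707 C (red diamonds) and after the GC and length correction (blue squares). With all libraries every interval spans 0, and without SGC707 C those of IGFBP2 and IGFBP4 leave 0 out, as does that of IGFBP2 after the correction. An interval that leaves 0 out corresponds to an unadjusted edgeR p under 0.05. That was reached by 30% of all tested genes without SGC707 C and by 23.9% after the correction.

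Seed matches of MIR448 were also followed over the whole table. The 575 tested genes with the 8-base match ATATGCAA in their 3′ UTR, IGF1R and IRS2 among them, had a median log2 fold change of 0.01, with 296 positive and 279 negative, and 0 called. With the 7-base match or longer, which adds IGF2R, 1734 genes had a median of 0.03, with 939 positive and 795 negative, and 0 called. The 10276 tested genes without the 7-base match had a median of 0.02, with 5412 positive and 4864 negative, 1 called higher and 2 called lower. No test between these groups was run. Median GC content was 42.1% with the 8-base match and 50.02% without a match.

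PRMT3, the gene of the inhibited enzyme, had 19.3, 19.2 and 23.3 normalised CPM with SGC707, against 16.7, 14.8 and 17.3 with DMSO, and did not pass (edgeR adjusted p = 0.479). Blocking the enzyme does not require a change in its mRNA, so the labels are not checked by this gene.

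Around the 10 genes, 79 further genes of the pathway were listed, 63 were tested and 0 passed in edgeR, with 6 at an unadjusted p under 0.05, where 12.8% of all tested genes were. In DESeq2, which called 2.47% of all tested genes, PIK3R2 and CITED2 passed. Without SGC707 C, when 9.26% of all tested genes were called in edgeR, 4 of the 63 passed, which were PIK3R2, TRIB3, CITED2 and SNX2. Of the 63, 34 had positive and 29 negative log2 fold changes, and the median was 0.01, against 0.02 for all tested genes. Of the 9 other ligand, receptor and binding protein genes, 4 were tested. IGFBP3, which encodes the main IGF carrier of serum, had 45.5, 87.8 and 100.5 normalised CPM with SGC707, against 98.9, 94.4 and 94.6 with DMSO (edgeR adjusted p = 0.674), and INSRR, which encodes the orphan insulin receptor-related receptor, had a log2 fold change of -0.27 with an edgeR adjusted p of 0.753. IGFBPL1, which encodes a protein related to the IGFBPs, had one of 0.24 (edgeR adjusted p = 0.727). IGFBP1, which encodes a liver binding protein, and IGFALS, which encodes the acid-labile subunit of the serum IGF complex, had 0 counts.

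Among IGFBP proteases and their inhibitors 3 of 5 genes were tested. PAPPA, which encodes the protease PAPP-A that cleaves IGFBP4, had 2.60, 2.77 and 2.81 normalised CPM with SGC707, against 3.43, 3.62 and 3.78 with DMSO, a log2 fold change of -0.41 with an edgeR adjusted p of 0.539. STC2, which encodes an inhibitor of PAPP-A, had a log2 fold change of 0.17 with an edgeR adjusted p of 0.721, and HTRA1, which encodes a secreted serine protease that cleaves IGFBPs, one of -0.07 (edgeR adjusted p = 0.968). Of the 3 IGF2 mRNA-binding protein genes IGF2BP3 alone was tested, at 88.2, 88.2 and 131 normalised CPM with SGC707, against 106, 108 and 101 with DMSO (edgeR adjusted p = 0.951). Of the proprotein convertase genes tested, PCSK6 had a log2 fold change of -0.26 with an edgeR adjusted p of 0.776 and PCSK7 of -0.05 (edgeR adjusted p = 0.941). FURIN, which encodes a convertase that cleaves both proreceptors, had 0.01 (edgeR adjusted p = 0.995).

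Of 15 tested adaptors that act next to the receptors, 9 had positive and 6 negative log2 fold changes (median 0.12). That median was -0.05 without SGC707 B, 0.01 without SGC707 A, 0.0014 without DMSO A and 0.03 without DMSO B. PIK3R2, which encodes the PI3K subunit p85 beta, had 67.7, 66.9 and 56.5 normalised CPM with SGC707, against 92.3, 98.6 and 88.3 with DMSO, a log2 fold change of -0.55 with an edgeR adjusted p of 0.243. CRKL, which encodes an SH2 and SH3 adaptor, had 101, 101 and 97.9 with SGC707 against 73.2, 70.0 and 84.6 with DMSO, a log2 fold change of 0.40 with an edgeR adjusted p of 0.309. SH2B2, which encodes an adaptor bound by the insulin receptor, had a log2 fold change of -0.52 with an edgeR adjusted p of 0.424. The groups did not overlap for these genes, which were named for their small p. Over all 15 tested adaptors this held for 5, against 20.6% of all tested genes.

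Among 12 tested attenuators of the receptors 7 were positive and 5 negative (median 0.14, and 0.03 to 0.24 over the fits without 1 library, lowest without SGC707 A, and 0.0025 under a stricter count filter). NEDD4L, which encodes a ubiquitin ligase, was the only one under an unadjusted p of 0.05, with a log2 fold change of -0.88 with an edgeR adjusted p of 0.370. GIGYF2, which encodes a GRB10-binding protein, had -0.37 (edgeR adjusted p = 0.404), and SOCS2, which encodes an inhibitor of cytokine signalling, had 0.57 (edgeR adjusted p = 0.440). Among 11 tested FOXO factors and genes they are known to induce 6 were positive and 5 negative (median 0.22, and 0.06 to 0.24 over the fits without 1 library, lowest without SGC707 A). FOXO6 had a log2 fold change of -1.10 with an edgeR adjusted p of 0.422. CITED2, a transcriptional coregulator gene, stood at -1.34 (edgeR adjusted p = 0.239) and TXNIP, which encodes a thioredoxin-binding regulator of glucose uptake, at 0.49 (edgeR adjusted p = 0.285). All 14 genes of mannose 6-phosphate sorting, the lysosomal route that IGF2R serves, were tested, with 8 positive and 6 negative (median 0.03). VPS29, which encodes a retromer subunit, had a log2 fold change of 0.53 with an edgeR adjusted p of 0.317 and GGA1, which encodes a sorting adaptor, one of -0.70 (edgeR adjusted p = 0.408). GGA2, which encodes a related adaptor, had 0.35 (edgeR adjusted p = 0.440). Over the fits without 1 library the median of the sorting genes lay between -0.09 (without SGC707 C) and 0.07. In normalised CPM the groups did not overlap for 0 of the 12 attenuators, 6 of the 11 genes of the FOXO list and 2 of the 14 sorting genes. Over all 63 further genes tested this held for 14, against 20.6% of all tested genes.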

How the data were processed

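The authors' deposited table holds raw read counts per gene symbol for 6 libraries, not scaled between them. HISAT2, StringTie and GRCh38 are named per the submitters' processing notes. The sources used here give no versions, annotation, strand setting or handling of shared reads. Counts are therefore uncertain for IGF2, which overlaps INS-IGF2, AC132217.1 and another annotated IGF2 entry on the same strand. The same holds for IRS4, which overlaps the protein-coding gene AL035425.2 on the same strand. IGF2, IGFBP5, IRS2 and IRS4 also have antisense neighbours, which adds to the uncertainty of their counts. Groups follow the treatment in the labels.

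The test used edgeR 4.0.16 under R 4.3.3, with TMM scaling, filterByExpr, robust glmQLFit, glmQLFTest and no covariate, with Benjamini-Hochberg adjustment over all 12196 tested genes. Intervals are log2 fold change ± its standard error times the two-sided 95% quantile of the t distribution, with the standard error taken from the F statistic. The procedure was checked on simulated counts, without a GC trend or with a GC trend in a single library. GC trends in several libraries, as seen here, were not simulated. Coordinates, lengths, GC content and 3′ UTRs came from GENCODE release 29, in which all 10 genes matched. The table's rows matched it by symbol for 19271, by synonym for 234 and not at all for 105. Ratios within a library had 0.5 added to each count. The ratio of IRS2 to IRS4 was not computed, because IRS4 had 0 counts.

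Alternatives were DESeq2 1.42.0, limma-voom (limma 3.58.1), RLE size factors, library totals, a filter of a mean count of 50 with 1 CPM in 3 libraries, no filter at all, no mitochondrial genes, a lowess correction (span 0.3) of each library for GC content and length entered as offsets, each library left out, a block for the replicate letter, and 0.01 as the threshold. Library weights, and the correction with each library left out, were added after seeing the data. The genes, lists and tests were chosen with earlier results of these data known. Every one of the 10 genes is named, with up to 3 tested genes of smallest p from each other pathway list. TRIB3 and SNX2 are named after their values were seen, and TH, SOX10, IGF1, INS, INS-IGF2, IGFBP1 and IGFALS for their counts of 0. Within groups no pair of libraries agreed within sampling noise (chi-square per degree of freedom at least 11.9). Figures were drawn with matplotlib 3.10.9.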

Additional observations from a re-analysis of the deposited data

How the results depend on the processing

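Of the 207 refitted log2 fold changes of the 8 genes and PRMT3, 191 kept their sign and their side of the threshold. The value of IRS2 changed sign with RLE size factors (-0.0087), with DESeq2 (-0.0086) and after the GC and length correction without SGC707 C (-0.0453), and lay between -0.0207 and 0.0298 over the fits without 1 library, where that of IGFBP4 lay between -0.1131 (without SGC707 A) and 0.4580. Library totals alone gave positive values for IGF1R (0.5471) and IGFBP5 (0.4654) and called INSR, IGF2R, IRS2 and PRMT3, with 3 of the 8 genes and 18 of the 63 further pathway genes past the threshold, and 2574 genes higher and 31 lower over the table. IGFBP2 also passed with library weights (log2 fold change 0.9589, limma adjusted p = 0.00994), as 1 of the 8, with 17 of the 63 and 28.2% of all tested genes called, and after the GC and length correction without DMSO C (0.7526, edgeR adjusted p = 0.0285), as 1 of the 8, with 5 of the 63 and 7.39% of all tested genes called. Over all of its alternatives its adjusted p ran from 0.00994 to 0.915. The cause was not tested.

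Over the table, the number of genes higher and lower was 1 and 5 with no filter, 52 and 249 with DESeq2 (2 of the 63 pathway genes), 0 and 2 with limma-voom, 1576 and 1861 with library weights, 9 and 55 once GC content and length were corrected for, and 0 and 0 at a threshold of 0.01. Leaving out 1 library gave 0 to 462 higher and 0 to 685 lower, 0 to 1 of the 8 genes and 0 to 4 of the 63, with the highest values without SGC707 C. Leaving out SGC707 A gave 5 and 4, DMSO C gave 0 and 5, and each of SGC707 B, DMSO A and DMSO B gave 0 and 0. Deviations of same-lettered libraries correlated weakly, at 0.08, -0.02 and 0.1 for A, B and C. The best match among the DMSO libraries was DMSO A for SGC707 A, DMSO A for SGC707 B and DMSO C for SGC707 C. Correlations this small cannot tell whether the letters mark a shared batch. With the replicate block 0 genes were higher and 0 lower, and 1 and 1 with the block and the correction together. Over the 8 lists of further genes, 117 of 136 refitted medians moved by less than the spread between replicates. Of the 19 that moved more, 11 did so in fits other than library totals alone. Medians within that spread could still change sign. That of the other ligand, receptor and binding protein genes was -0.02 in the main fit and 0.22 without SGC707 C. It was -0.27 under the stricter filter. Of the 10 genes, 7 kept their rank by level under either other length.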

Other observations

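The 3 genes whose log2 normalised CPM over the 6 libraries was most like that of IGF1R were TAF9B (Pearson r 0.995), GPATCH1 (0.988) and CDK13 (0.988), out of 10191 genes with a mean of at least 5 normalised CPM, of which 102 had an r above 0.95. This is a description of 6 libraries that share their scaling and GC trends. IGFBP5 took 48.6%, 50.5% and 52.5% of the counts of the 10 genes with SGC707, against 57.1%, 57.5% and 54.6% with DMSO, so its share was below the DMSO libraries in all 3 SGC707 libraries. That share also moves with the counts of the other genes. IGFBP2 had 1468, 1166 and 298 counts with SGC707, against 371, 408 and 493 with DMSO. How often such a share is apart for other genes was not computed. Together the 10 genes held 0.186%, 0.186% and 0.152% of the nuclear counts with SGC707, against 0.175%, 0.175% and 0.173% with DMSO.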
